A study of Mus musculus with 12 samples.

Results

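The response of Nox2-deficient gingiva to a ligature was measured by setting 3 libraries from ligated CybbKO mice against 3 libraries from naive CybbKO mice, chosen by their sample labels, which makes 6 of the 12 libraries of the series. All libraries of both groups are labelled Cybb-/-, a genotype without a working gene for gp91phox, the membrane subunit of the phagocyte oxidase Nox2, and the counts of Cybb given further on do not check that label. In ligated CybbKO mice a silk ligature had been placed around a maxillary molar and the gingiva around it was taken after 8 days, while naive CybbKO mice had no ligature. The series lists 3 mice per group, matched for age and sex, and the sex of single mice is not given. The labels give an age of less than 12 weeks and the methods another range. The other 6 libraries came from ligated and naive C57BL/6 wildtype (WT) mice, which carry an intact Cybb, and served for the common estimate of the spread and for values side by side.

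A ligature around a molar holds plaque bacteria against the gingival margin. The tissue there is a stratified epithelium that meets the tooth at the junctional epithelium, above a collagen-rich connective tissue that anchors the tooth to the alveolar bone. In ligature-induced periodontitis neutrophils enter first, monocytes and lymphocytes follow, matrix metalloproteinases cut the collagen fibres, and osteoclasts formed under the cytokine RANKL resorb the bone. Neutrophils and macrophages use Nox2 to make superoxide, and its loss causes chronic granulomatous disease, in which both killing of microbes and the ending of inflammation are disturbed.

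The 6 CybbKO libraries held between 33133635 and 42613423 counted reads. A gene was called when its adjusted p (edgeR's quasi-likelihood test, Benjamini-Hochberg over all genes tested) was under 0.05. Values are given as counts scaled to library size and edgeR's TMM factor (CPM) for ligated and naive replicates 1, 2 and 3 in that order. Fold changes are log2, ligated minus naive. Of 15046 genes tested, 1954 were called, a share of 13.0%. Of these, 1497 were higher in ligated tissue (9.95% of the genes tested) and 457 were lower (3.04%). These shares stand beside each count of list members called below. Among the called genes 1183 rose more than 2-fold and 142 fell more than 2-fold, and the median log2 fold change was 1.40 for those that rose and -0.74 for those that fell. The median over all tested genes was -0.03.

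Markers of oral epithelium were present in every library, with a summed CPM over 12 genes of 60874 to 107991 in ligated and 89279 to 125142 in naive libraries. One ligated library stood apart from the others of its group. On the first principal component of log2 CPM over all 12 libraries, which held 45.6% of the variance, the naive CybbKO libraries lay between 31.1 and 34.4, ligated replicates 1 and 3 at -47.3 and -51.7, and ligated replicate 2 at -10.2. Ligated replicate 2 was the lowest of the 3 ligated libraries for 1194 of the 1497 genes that rose and the highest for 290 of the 457 that fell. Without it 2949 genes were called, 1975 higher and 974 lower, and 1830 of the 1954 genes were among them in the same direction. Leaving out another library lowered the count, to 837 without ligated replicate 1, 854 without ligated replicate 3, and 1178, 1113 and 1148 without naive replicates 1, 2 and 3.

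**Figure D1:**
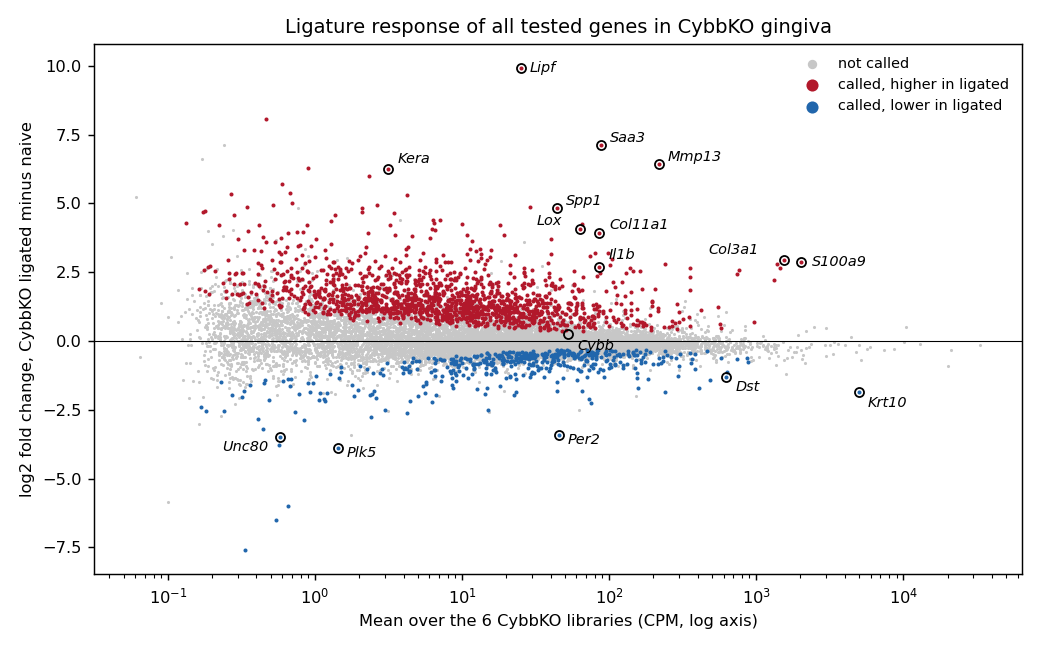
Each point is 1 of the 15046 tested genes, with its mean over the 6 CybbKO libraries on the x axis (CPM, log axis) and its log2 fold change, ligated minus naive, on the y axis, and red points were called higher and blue points lower. Lipf, Saa3 and Mmp13 lie at 9.92, 7.12 and 6.43, and Per2 at -3.42.

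Matrix-degrading enzymes were among the genes that rose most. Of the 20 tested members of a list of matrix metalloproteinases (MMPs), ADAMTS proteases and their TIMP inhibitors, 17 were called higher and 0 lower, with a median log2 fold change of 2.13, beside -0.03 over all genes. Collagenase-3, Mmp13 (ENSMUSG00000050578, chr9:7272514-7283331, plus strand), had 554, 43.8 and 693 CPM in ligated and 6.61, 3.08 and 5.28 CPM in naive tissue. Its naive libraries lay close together, and ligated replicate 2 was far below the other ligated libraries but above every naive one. The log2 fold change was 6.43 (SE 1.10, adjusted p = 0.00435), and 6.96 without ligated replicate 2. Stromelysin-1, Mmp3 (ENSMUSG00000043613, chr9:7445822-7455975, plus strand), which cuts proteoglycans and activates other MMPs, had 92.5, 13.9 and 117 CPM against 5.20, 5.24 and 6.50 CPM, a log2 fold change of 3.72 (SE 0.64, adjusted p = 0.00437). Stromelysin-2, Mmp10 (ENSMUSG00000047562, chr9:7502352-7510240, plus strand), rose by 3.17 (SE 0.56, adjusted p = 0.00493), from 3.35, 2.03 and 2.65 to 32.1, 5.54 and 34.9 CPM. Neither gene had overlapping groups. Adamts4, an aggrecanase, had 15.9, 3.50 and 17.2 CPM in ligated and 0.693, 0.305 and 0.732 CPM in naive tissue and rose by 4.40 (SE 0.59, adjusted p = 0.00207). Gelatinase A, Mmp2, the list's member with the most reads, rose by 1.35 (SE 0.22, adjusted p = 0.00346), and Mmp14, the membrane protease that activates it, by 1.37 (SE 0.21, adjusted p = 0.00290). The inhibitor Timp1 rose with the enzymes, by 3.05 (SE 0.59, adjusted p = 0.00712). The number called higher was 11 without ligated replicate 1.

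Mmp13, Mmp3 and Mmp10 lie in the same cluster of MMP genes on chromosome 9 and their start regions share a short motif, which is why their sequences are shown here. Mmp3 and Mmp10 were chosen after their values were seen. The 250 bases before each RefSeq start (GRCm38.p6, all on the plus strand) are printed 5′ to 3′, with matches to the AP-1 motif TGANTCA in capitals. The motif was searched on both strands.
Mmp13 chr9:7272264-7272513: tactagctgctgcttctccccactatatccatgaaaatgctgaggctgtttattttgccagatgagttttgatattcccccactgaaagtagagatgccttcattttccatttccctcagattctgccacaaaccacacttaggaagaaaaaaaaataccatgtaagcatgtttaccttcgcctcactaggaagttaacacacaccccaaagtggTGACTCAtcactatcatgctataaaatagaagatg
Mmp3 chr9:7445572-7445821: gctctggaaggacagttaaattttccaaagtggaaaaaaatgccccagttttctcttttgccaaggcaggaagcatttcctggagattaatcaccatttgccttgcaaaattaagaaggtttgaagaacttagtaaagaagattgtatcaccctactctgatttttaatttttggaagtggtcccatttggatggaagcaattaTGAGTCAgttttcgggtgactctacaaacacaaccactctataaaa
Mmp10 chr9:7502092-7502341: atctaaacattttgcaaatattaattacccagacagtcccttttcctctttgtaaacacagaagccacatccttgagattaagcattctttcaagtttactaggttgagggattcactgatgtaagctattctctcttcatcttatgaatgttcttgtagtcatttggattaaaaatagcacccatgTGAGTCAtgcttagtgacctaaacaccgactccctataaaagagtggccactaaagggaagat
Each window held 1 match, which began 35, 46 and 63 bases before the start of Mmp13, Mmp3 and Mmp10. Of the 15 genes of the list with an entry in the promoter table, 4 held the motif, the other one being Mmp12, a macrophage elastase. In all, 6.75% of the 32851 promoter windows in the table held it. A match of letters is not a measured binding site.

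Transcripts of most collagen chains were also higher in ligated tissue. Of 20 collagen chains, 16 were called higher and 0 lower, and the median log2 fold change was 2.51. Col11a1, a minor fibrillar chain that nucleates collagen fibrils, had the smallest p of the list. It had 209, 80.0 and 190.1 CPM in ligated and 14.7, 7.82 and 8.63 CPM in naive libraries, a log2 fold change of 3.94 (SE 0.37, adjusted p = 0.000951). The lowest ligated library was several times the highest naive one. Col3a1, the chain of reticular fibres in young and healing connective tissue, had 3771, 1152 and 3267 CPM against 425, 285 and 344 CPM and rose by 2.96 (SE 0.41, adjusted p = 0.00210). Its 2 partners in fibrillar collagen, Col1a1 and Col1a2, rose by 2.58 and 2.67, and the basement membrane chains Col4a1 and Col4a2 by 2.66 and 2.48. In each of these genes ligated replicate 2 was the lowest ligated library and still above the naive libraries. The list median per ligated library, as log2 of (CPM + 0.5) over the naive mean with the same 0.5 added, was 2.76, 1.38 and 2.69 in replicates 1, 2 and 3. No library left out changed the number of called chains by more than 1.5 times.

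Of 17 enzymes that mature collagen, 10 were called higher and 0 lower (median 1.11). Lysyl oxidase, Lox, which crosslinks collagen and elastin, had 162, 35.2 and 161 CPM in ligated and 7.24, 6.49 and 7.26 CPM in naive tissue. This was a log2 fold change of 4.09 (SE 0.55, adjusted p = 0.00207), and its relative Loxl2 rose by 2.85 (SE 0.38, adjusted p = 0.00207). Plod2, the lysyl hydroxylase of collagen telopeptides, rose by 2.04 (SE 0.43, adjusted p = 0.0107). P4hb, the member with the most reads and a subunit shared with general protein folding, had 972, 1162 and 1064 CPM against 1136, 1070.4 and 1096 CPM and was not called (adjusted p = 0.830).

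Fibroblast and periodontal ligament genes followed the same direction, with 14 of 20 called higher and 0 lower (median 1.503). Periostin, Postn, a matricellular protein of the periodontal ligament, had 1571, 552 and 1643 CPM in ligated libraries. In naive libraries it had 253, 235 and 209 CPM, and the log2 fold change was 2.43 (SE 0.34, adjusted p = 0.00210). Fibrillin-1, Fbn1, which forms microfibrils, rose by 3.20 (SE 0.32, adjusted p = 0.00104) from 18.2, 12.9 and 16.0 to 187, 75.5 and 170.3 CPM. Elastin, Eln, which is laid on them, rose by 3.09 (SE 0.45, adjusted p = 0.00240). The platelet-derived growth factor receptors Pdgfra and Pdgfrb, markers of fibroblasts and pericytes, rose by 1.40 (adjusted p = 0.0180) and 1.52 (adjusted p = 0.00641). The groups of Pdgfra overlapped, and its call was lost without ligated replicates 1 or 3 or naive replicates 2 or 3 (adjusted p up to 0.0815). In bulk tissue, more cells of a type and more RNA of its genes per cell cannot be told apart, here and in all that follows.

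**Figure D2:**
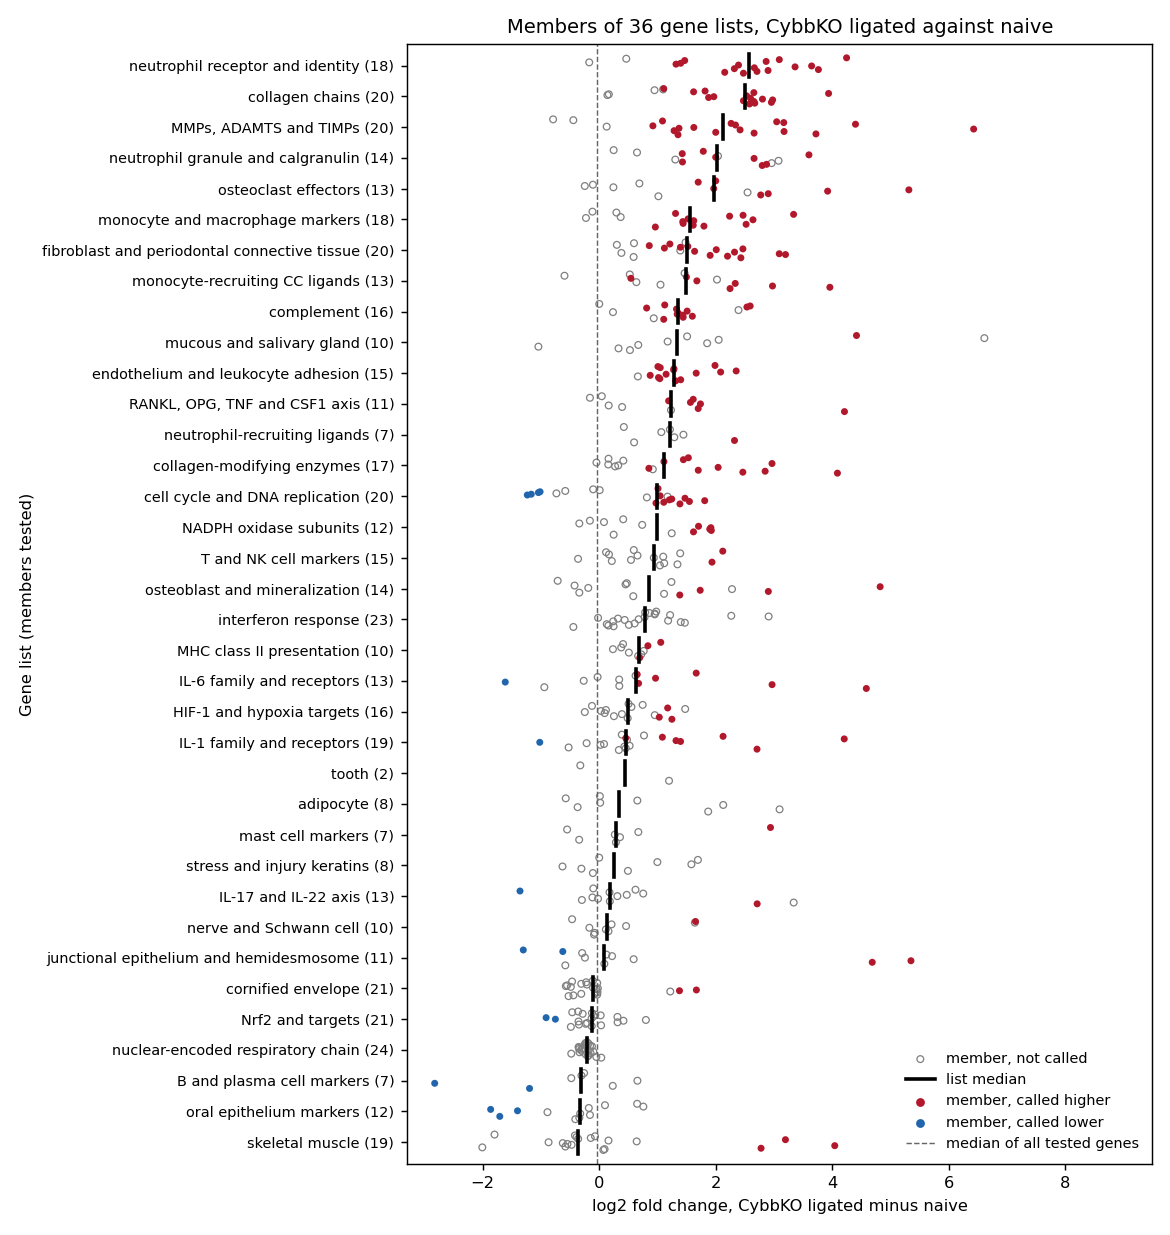
Each row is 1 of 36 gene lists with the number of members tested, and each point is 1 member at its log2 fold change, CybbKO ligated minus naive, filled where called and open where not, with black bars at list medians and a dashed line at the median of all tested genes. Neutrophil receptors, collagen chains and MMPs have medians of 2.57, 2.51 and 2.13, and the respiratory chain members lie in a narrow band from -0.48 to 0.04.

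Genes of neutrophils rose in ligated CybbKO gingiva. Of 18 receptor and identity genes of mature neutrophils, 16 were called higher and 0 lower, with a median of 2.57. Acod1, which makes itaconate in activated myeloid cells, had 14.8, 22.2 and 20.01 CPM in ligated and 1.39, 0.721 and 0.885 CPM in naive libraries. Its log2 fold change was 4.25 (SE 0.50, adjusted p = 0.00185), and here ligated replicate 2 was the highest library. Clec4e (Mincle) and Clec4d, C-type lectin receptors of myeloid cells, rose by 3.65 (SE 0.57, adjusted p = 0.00285) and 3.36 (SE 0.55, adjusted p = 0.00342). Cxcr2, the receptor through which CXC chemokines draw neutrophils into tissue, had 29.6, 17.6 and 38.9 CPM against 7.19, 4.38 and 7.75 CPM, a log2 fold change of 2.16 (SE 0.33, adjusted p = 0.00279). The groups did not overlap for any of these 4 genes, which were picked by small p or after their values were seen. Their lack of overlap therefore adds no support. Ly6g, the standard surface marker of mouse neutrophils, had few reads and close relatives in the Ly6 family, with 0.235, 1.77 and 0.502 CPM against 0.0866, 0.0555 and 0.0305 CPM, and rose by 3.76 (SE 0.92, adjusted p = 0.0208). Its call was lost without naive replicates 1, 2 or 3 (adjusted p up to 0.0786), and without ligated replicate 2 the log2 fold change was 2.61. Hcar2, the member with the most reads, had 97.3, 127 and 116 CPM in ligated and 129, 135 and 118 CPM in naive tissue and was not called. No library left out moved the list's count by more than 1.5 times.

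Of 14 tested granule and calgranulin genes, 8 were called higher and 0 lower (median 2.02). S100a8 and S100a9 form calprotectin, which binds metal ions that microbes need and is made by neutrophils and by inflamed epithelium. S100a8 had 1784, 966 and 4551 CPM in ligated and 361, 380.4 and 306 CPM in naive libraries, a log2 fold change of 2.80 (SE 0.58, adjusted p = 0.00955). S100a9 rose by 2.87 (SE 0.58, adjusted p = 0.00858), from 508, 483 and 467 to 2412, 1414 and 6861 CPM. In both genes ligated replicate 3 was highest and replicate 2 lowest, the spread within the ligated group was several-fold, and every ligated library exceeded every naive one. Without ligated replicate 3 the log2 fold change was 1.98 for both S100a8 and S100a9. The genes of azurophil granules that are transcribed in marrow progenitors, Elane, Mpo, Prtn3 and Ctsg, had too few reads to be tested. The count was 3 without naive replicate 2, 4 without ligated replicate 1 or naive replicates 1 or 3 and 5 without ligated replicate 3.

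The ligands that recruit neutrophils gave a single call. Of 7 tested, 1 was called higher and 0 lower, near the 9.95% of all genes called higher, and the median was 1.22. The called gene was Cxcl2, with 32.1, 31.4 and 50.1 CPM in ligated and 6.26, 6.30 and 10.2 CPM in naive tissue (log2 fold change 2.32, SE 0.70, adjusted p = 0.0483). That call was lost with any single library but ligated replicate 2 left out (adjusted p up to 0.146). Cxcl5 had 567, 217 and 646 CPM against 163, 178 and 184 CPM, a difference of 1.45 (SE 0.63, adjusted p = 0.162) that did not pass the test. Ligated replicate 2 lay near the naive libraries for Cxcl5 and replicates 1 and 3 well above them. Cxcl1 had 56.9, 25.5 and 60.0 CPM against 22.5, 39.7 and 31.8 CPM (log2 fold change 0.60, SE 0.64, adjusted p = 0.582) and its groups overlapped. Csf3, which encodes the granulocyte growth factor G-CSF, had 19.3, 11.2 and 16.6 CPM against 10.04, 3.05 and 7.17 CPM and a difference of 1.22 (SE 0.66, adjusted p = 0.263).

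Of 18 monocyte and macrophage markers, 14 were called higher and 0 lower (median 1.56). The list median varied little between ligated libraries, with 1.43, 1.29 and 1.38 in replicates 1, 2 and 3, while single members such as Msr1 varied more. Csf1r, the receptor for the macrophage growth factor CSF1, had 42.0, 29.3 and 38.9 CPM in ligated and 13.5, 9.65 and 12.9 CPM in naive libraries and rose by 1.62 (SE 0.19, adjusted p = 0.00185). Msr1, a scavenger receptor, had 7.68, 3.29 and 11.8 CPM against 0.779, 0.610 and 0.854 CPM, a log2 fold change of 3.34 (SE 0.45, adjusted p = 0.00207). The high-affinity IgG receptor gene Fcgr1 rose by 2.47 (SE 0.30, adjusted p = 0.00185) and Adgre1, which encodes F4/80, by 1.80 (SE 0.24, adjusted p = 0.00207). In all 4 genes every ligated library was above every naive one, and no library left out ended a call.

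Of 13 CC chemokines that recruit monocytes and other leukocytes, 7 were called higher and 0 lower (median 1.499). Ccl3 had 0.914, 1.74 and 1.60 CPM in ligated and 0.115, 0 and 0.153 CPM in naive tissue, a log2 fold change of 3.96 (SE 0.70, adjusted p = 0.00482). Without naive replicates 2 and 3 in turn it was 3.37 and 4.56. Ccl2, the main ligand of Ccr2, had 7.89, 3.02 and 8.49 CPM against 0.722, 1.83 and 1.53 CPM and rose by 2.25 (SE 0.57, adjusted p = 0.0234), with ligated replicate 2 closest to the naive values. The Ccl2 call was lost with any single library but ligated replicate 2 left out (adjusted p up to 0.0842). For the whole list the count was 1 without ligated replicate 3 or naive replicate 3, 2 without ligated replicate 1 or naive replicate 1 and 3 without naive replicate 2.

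Complement genes showed a similar pattern. Of 16, 12 were called higher and 0 lower, with a median of 1.35. The C1q chain C1qb, made by tissue macrophages, had 22.01, 25.1 and 20.7 CPM in ligated and 7.94, 6.44 and 7.96 CPM in naive libraries and rose by 1.60 (SE 0.21, adjusted p = 0.00207). C1s1, a protease of the same first component, had 199, 119 and 201 CPM against 72.3, 69.8 and 63.4 CPM (log2 fold change 1.34, SE 0.21, adjusted p = 0.00324). The receptors for the split products C3a and C5a, C3ar1 and C5ar1, rose by 2.59 (SE 0.30, adjusted p = 0.00185) and 2.54 (SE 0.47, adjusted p = 0.00573). All 4 kept their calls with each library left out. C3, the central component, rose by 1.11 (SE 0.33, adjusted p = 0.0437), a call lost without ligated replicates 1 or 2 or naive replicates 1, 2 or 3 (adjusted p up to 0.141).

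Genes of cytosolic Nox2 subunits rose, while the disrupted gene Cybb was not called. Ncf1 and Ncf4 encode the cytosolic subunits p47phox and p40phox. Ncf1 had 10.3, 7.73 and 10.3 CPM in ligated and 3.20, 2.33 and 3.69 CPM in naive tissue and rose by 1.62 (SE 0.26, adjusted p = 0.00327), Ncf4 by 1.90 (SE 0.30, adjusted p = 0.00305), and the GTPase gene Rac2 by 1.92 (SE 0.31, adjusted p = 0.00342). Cyba, which encodes the membrane partner p22phox, had 8.20, 7.78 and 8.01 CPM against 4.04, 2.11 and 3.97 CPM and missed the threshold (adjusted p = 0.0545). Cybb (ENSMUSG00000015340, chrX:9435252-9487771, minus strand) had 56.1, 51.1 and 63.7 CPM in ligated and 41.6, 56.3 and 45.9 CPM in naive libraries, groups that overlapped, and was not called (log2 fold change 0.25, SE 0.20, adjusted p = 0.466). The same gene had 5.60, 5.38 and 4.19 CPM in naive and 8.41, 15.2 and 12.8 CPM in ligated WT libraries, so reads were counted on Cybb in the libraries labelled CybbKO, at levels above those in libraries labelled WT. Because reads were summed along the entire gene, these values cannot serve as a check of the knockout labels. Of 12 tested genes in the oxidase list, which also covers Nox and Duox enzymes of other cells, 5 were called higher and 0 lower (median 0.99). Also called was Nox4, an oxidase of stromal and endothelial cells, which rose by 1.71 (SE 0.37, adjusted p = 0.0127). The Nox4 call was lost without ligated replicates 1 or 3 or naive replicate 3 (adjusted p up to 0.0580).

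**Figure D3:**
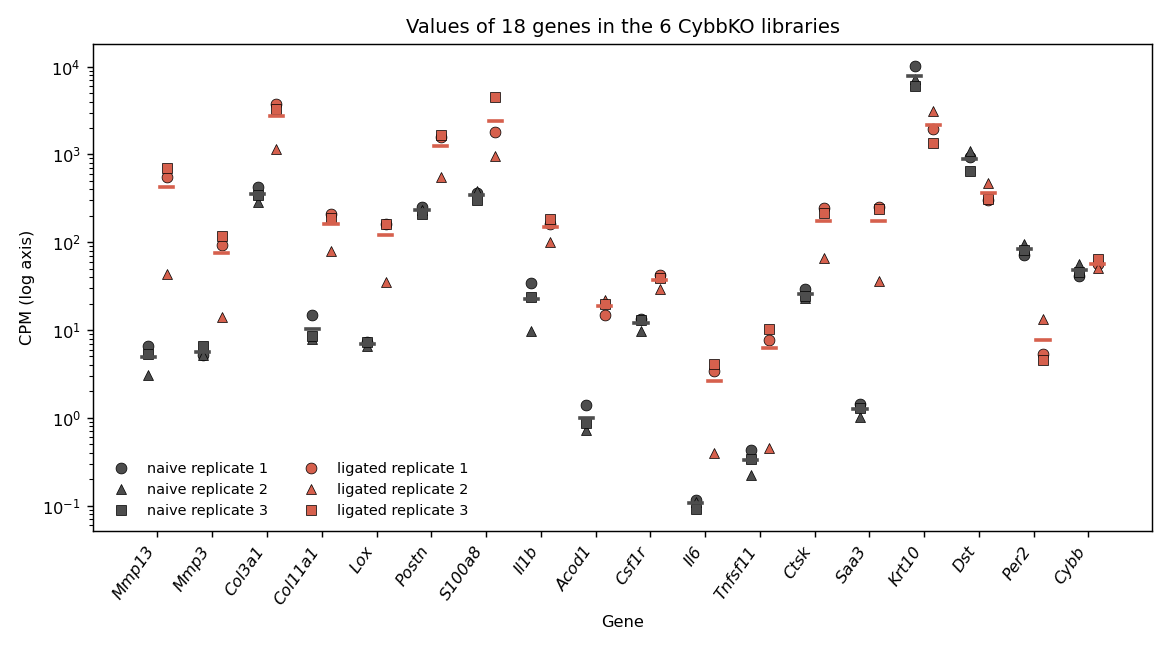
Values of 18 genes in each CybbKO library are shown in CPM on a log axis, with naive libraries in grey, ligated libraries in red, replicates 1, 2 and 3 as circles, triangles and squares, and group means as short lines. The triangle of ligated replicate 2 lies nearest to the naive values for Mmp13, Lox, Il6, Tnfsf11, Ctsk and Saa3, while all 6 values of Cybb lie between 41.6 and 63.7.

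Among cytokines of the IL-1 family and their receptors, 7 of 19 were called higher and 1 lower (median 0.46), where 9.95% and 3.04% of all genes were. The 1 lower call is not a result about the family. Il1b, the main secreted pyrogenic member, had 162, 99.5 and 186 CPM in ligated and 34.5, 9.82 and 23.9 CPM in naive libraries. It rose by 2.71 (SE 0.53, adjusted p = 0.00729), with the groups well apart. The signalling receptor gene Il1r1 rose by 1.40 (SE 0.27, adjusted p = 0.00702). The decoy receptor gene Il1r2, expressed by neutrophils, rose by 1.32 (SE 0.24, adjusted p = 0.00510). Il1rl1, which encodes the IL-33 receptor ST2, had 49.7, 6.85 and 46.0 CPM against 1.90, 1.33 and 2.32 CPM and a log2 fold change of 4.21 (SE 0.72, adjusted p = 0.00430). Here ligated replicate 2 lay between the other ligated libraries and the naive ones. The antagonist gene Il1rn, with the most reads of the list, had 439, 212 and 503 CPM against 333, 215 and 292 CPM and was not called (adjusted p = 0.349). Without ligated replicate 2 it was called (adjusted p = 0.0463). The one member called lower was Il1f10, which encodes IL-38 (log2 fold change -1.02, SE 0.23, adjusted p = 0.0139), a call lost without ligated replicate 3 or naive replicate 1 (adjusted p up to 0.0691).

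Of 13 genes of the IL-6 family and its signalling, 6 were called higher and 1 lower (median 0.63), where 9.95% and 3.04% of all genes were. Here as well the 1 lower call is not a result about the family. Il6 itself had 3.42, 0.401 and 4.06 CPM in ligated and 0.115, 0.111 and 0.0915 CPM in naive libraries, a log2 fold change of 4.59 (SE 1.12, adjusted p = 0.0208). Ligated replicates 1 and 3 were far above the naive libraries, and replicate 2 only somewhat above. The call of Il6 was lost with any single library but ligated replicate 2 left out (adjusted p up to 0.0761). Oncostatin M, Osm, which neutrophils and macrophages release, had 4.94, 6.15 and 7.42 CPM against 1.18, 0.472 and 0.702 CPM and rose by 2.97 (SE 0.52, adjusted p = 0.00469). Its receptor gene Osmr rose by 0.97 (SE 0.20, adjusted p = 0.0104), the transcription factor gene Stat3 by 0.65 (SE 0.12, adjusted p = 0.00626), and the feedback inhibitor gene Socs3 by 1.67 (SE 0.38, adjusted p = 0.0146). Osm and Stat3 kept their calls with each library left out, and calls were lost for Osmr without ligated replicates 1 or 3 (adjusted p up to 0.0511) and Socs3 without ligated replicate 3 (adjusted p = 0.0636). The number called higher was 2 without ligated replicate 3 and 3 without ligated replicate 1, and the number called lower was 0 without ligated replicate 3 or naive replicate 1.

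In the IL-17 and IL-22 axis 1 of 13 genes was called higher and 1 lower, where 9.95% and 3.04% of all genes were, so the first count is not a result about the axis. Il17a, the cytokine through which lymphocytes raise neutrophil chemokines in epithelium, had 2.69, 0.562 and 3.26 CPM in ligated and 0.346, 0.305 and 0.336 CPM in naive libraries (log2 fold change 2.71, SE 0.80, adjusted p = 0.0443). Ligated replicate 2 was close to the naive values, and the call was lost with any single library but ligated replicate 2 left out (adjusted p up to 0.155). Without ligated replicate 2 the number called higher was 3. Il17f had 1.83, 0.0267 and 2.85 CPM against 0, 0.388 and 0.0610 CPM and was not called (adjusted p = 0.117).

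The RANKL axis, which sets osteoclast formation, had 6 of 11 genes called higher and 0 lower (median 1.23). Tnfsf11, the gene of RANKL, had 7.78, 0.455 and 10.2 CPM in ligated and 0.433, 0.222 and 0.336 CPM in naive libraries. Ligated replicate 2 was just above the highest naive value and the other ligated libraries were far above it. The log2 fold change was 4.21 (SE 1.04, adjusted p = 0.0215), and 4.76 (adjusted p = 0.00183) without ligated replicate 2. Tnfrsf11b, the gene of the decoy receptor osteoprotegerin, had 28.6, 32.7 and 37.9 CPM against 14.7, 13.3 and 14.2 CPM, a difference of 1.23 (SE 0.38, adjusted p = 0.0547) just outside the threshold, with groups that did not overlap. Tnfrsf11a, the gene of the receptor RANK, rose by 1.70 (SE 0.45, adjusted p = 0.0285). Csf1 had 25.3, 25.6 and 30.6 CPM against 14.4, 7.57 and 13.6 CPM and rose by 1.19 (SE 0.25, adjusted p = 0.00989). Tnf had 4.86, 5.94 and 5.07 CPM against 4.33, 3.16 and 4.58 CPM and was not called (log2 fold change 0.39, SE 0.39, adjusted p = 0.547), while the gene of one of its receptors, Tnfrsf1b, rose by 1.74 (SE 0.31, adjusted p = 0.00530). Calls were lost for Tnfsf11 with any single library but ligated replicate 2 left out (adjusted p up to 0.0808) and Tnfrsf11a with any single library but ligated replicate 2 left out (adjusted p up to 0.0969). The count of the list was 3 without ligated replicates 1 or 3 or naive replicates 1, 2 or 3.

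Genes of osteoclast effectors were higher as well, 7 of 13 tested, with 0 lower (median 1.97). Cathepsin K, Ctsk, the protease that digests bone collagen, had 247, 65.6 and 214 CPM in ligated and 29.7, 22.9999 and 24.3 CPM in naive libraries and rose by 2.77 (SE 0.48, adjusted p = 0.00464). Fibroblasts can express it as well. Atp6v0d2, a subunit of the acid pump, had 13.2, 0.856 and 10.6 CPM against 0.115, 0.305 and 0.183 CPM (log2 fold change 5.32, SE 1.07, adjusted p = 0.00852). Ocstamp, needed for the fusion of osteoclast precursors, rose by 3.92 (SE 0.68, adjusted p = 0.00452). These 3 genes kept their calls with each library left out, and in all 3 ligated replicate 2 was the lowest ligated library. For this list the count was 4 without ligated replicates 1 or 3 or naive replicates 1, 2 or 3. Of 14 tested osteoblast and mineralization genes 4 were called higher and 0 lower, where 9.95% of all genes were called higher. They included osteopontin, Spp1, made by osteoblasts, osteoclasts and macrophages, with 138, 9.71 and 107 CPM against 3.32, 2.47 and 3.20 CPM (log2 fold change 4.82, SE 1.05, adjusted p = 0.0125), and alkaline phosphatase, Alpl (log2 fold change 1.73, SE 0.39, adjusted p = 0.0136). Calls were lost for Spp1 without naive replicate 2 (adjusted p = 0.0555) and Alpl without ligated replicate 1 or naive replicates 2 or 3 (adjusted p up to 0.0592), and the list's count was 0 without naive replicate 2, 1 without ligated replicate 1 or naive replicate 3 and 2 without ligated replicate 3.

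Endothelial and leukocyte adhesion genes were called higher in 14 of 15 cases and lower in 0 (median 1.28). Pecam1, the adhesion molecule CD31 of endothelial junctions, had 121, 80.3 and 129 CPM in ligated and 42.7, 43.1 and 46.9 CPM in naive libraries and rose by 1.31 (SE 0.19, adjusted p = 0.00234). The junction cadherin gene Cdh5 rose by 1.40 (SE 0.22, adjusted p = 0.00285). P-selectin, Selp, which catches rolling leukocytes, had 183, 38.3 and 197 CPM against 33.3, 18.1 and 30.5 CPM, a log2 fold change of 2.35 (SE 0.54, adjusted p = 0.0155). Ligated replicate 2 was only just above the naive libraries for Selp, and the call was lost without ligated replicates 1 or 3 or naive replicate 2 (adjusted p up to 0.0650). Angpt2, which loosens vessels, rose by 1.99 (SE 0.35, adjusted p = 0.00460), and the atypical chemokine receptor gene Ackr1 of venules by 1.67 (SE 0.29, adjusted p = 0.00464). The number of called genes was 5 without ligated replicate 1, 6 without ligated replicate 3 or naive replicate 2 and 9 without naive replicate 1.

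Epithelial markers were called on the lower side. Of 12 oral epithelium markers, 3 were called lower and 0 higher (median -0.33), where 3.04% of all genes were called lower. Krt13, the mucosal keratin with the most reads of the list, had 25405, 43913 and 25365 CPM in ligated and 40099, 26855 and 38650.4 CPM in naive libraries and was not called (adjusted p = 0.774). Krt10, a keratin of keratinizing layers such as attached gingiva, had 1940.1, 3124 and 1364 CPM against 10131, 7237 and 6006 CPM. Every ligated library was below every naive one and the log2 fold change was -1.86 (SE 0.33, adjusted p = 0.00469). Its partner Krt1 fell, with -1.40 (SE 0.37, adjusted p = 0.0287), and so did Krt15, a keratin of basal cells, with -1.71 (SE 0.47, adjusted p = 0.0335). Leaving out a library ended the call of Krt1 without ligated replicates 1 or 3 or naive replicates 1 or 2 (adjusted p up to 0.115) and Krt15 with any single library but ligated replicate 2 left out (adjusted p up to 0.129). The log2 fold change of Krt15 was -2.75 without ligated replicate 2. Of 8 stress and injury keratins, 0 were called, with 1 at an unadjusted p under 0.05 and 0 called by DESeq2. Krt6b, whose reads may be shared with its near copy Krt6a, had 10841, 12560.3 and 13278 CPM against 11242, 7634 and 7172 CPM. Of that list 1 gene was called higher without naive replicate 1. Of the oral epithelium list, the number called lower was 1 without ligated replicates 1 or 3 or naive replicates 1 or 2, and 1 was called higher without ligated replicate 2.

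Of 11 genes of the junctional epithelium and hemidesmosome, 2 were called higher and 2 lower, where 9.95% and 3.04% of all genes were. Those that fell anchor basal cells to the basement membrane. Dystonin, Dst, had 302, 474 and 309 CPM in ligated and 939, 1096 and 643 CPM in naive libraries and fell, with a log2 fold change of -1.30 (SE 0.22, adjusted p = 0.00393). Col17a1 had 633, 839 and 558 CPM against 1222, 935 and 971 CPM (log2 fold change -0.62, SE 0.18, adjusted p = 0.0401), a call lost with any single library but ligated replicate 2 left out (adjusted p up to 0.162). Those that rose were the serum amyloid A genes Saa1 and Saa2, which are nearly identical, so reads may be split between them. For this list the number called higher was 1 without ligated replicates 1 or 3 or naive replicates 1, 2 or 3, and so was the number called lower. Saa1 had 1.57, 0.829 and 9.77 CPM against 0.173, 0.166 and 0.122 CPM (log2 fold change 4.69, SE 0.91, adjusted p = 0.00733), and without ligated replicate 3 the log2 fold change was 2.93. Another member of this acute-phase family, Saa3 (ENSMUSG00000040026, chr7:46711998-46715700, minus strand), was outside the lists and had the second largest rise of all genes with at least 1 CPM on average. It had 251, 35.8 and 236 CPM in ligated and 1.44, 1.03 and 1.28 CPM in naive libraries, a log2 fold change of 7.12 (SE 1.17, adjusted p = 0.00364). Ligated replicate 2 was far below the other ligated libraries and far above the naive ones.

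Of 21 genes of the cornified envelope 2 were called higher and 0 lower, a share near the 9.95% of all genes called higher. Both belong to the Sprr2 family of small proline-rich proteins, whose members are alike in sequence, so their counts are uncertain one by one. Sprr2h had 51.0, 19.4 and 81.0 CPM in ligated and 18.2, 10.8 and 18.6 CPM in naive libraries (log2 fold change 1.67, SE 0.45, adjusted p = 0.0315) and Sprr2f rose by 1.38 (SE 0.41, adjusted p = 0.0460). Calls were lost for Sprr2h with any single library but ligated replicate 2 left out (adjusted p up to 0.146) and Sprr2f with any single library but ligated replicate 2 left out (adjusted p up to 0.189). Of this list 1 gene was called lower without ligated replicate 2. Outside the list, Sprr2b had 28.9, 11.02 and 128 CPM against 2.19, 2.28 and 1.25 CPM and rose by 4.87 (SE 0.98, adjusted p = 0.00871), or by 3.38 without ligated replicate 3.

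Lymphocyte lists had only 2 calls each. Of 15 tested T and NK cell markers 2 were called higher and 0 lower, with a fitted median of 0.94. The share called higher was near the 9.95% of all genes, so that count is not a result about these cells. Cd4 rose by 1.94 (SE 0.47, adjusted p = 0.0208), from 0.548, 0.721 and 0.610 to 2.72, 1.18 and 3.33 CPM, and Icos, a costimulator of helper T cells, by 2.12 (SE 0.54, adjusted p = 0.0251). Both calls were lost in the same way, for Cd4 with any single library but ligated replicate 2 left out (adjusted p up to 0.0875) and Icos with any single library but ligated replicate 2 left out (adjusted p up to 0.111). Without ligated replicate 2, 1 marker was called lower. Of 7 tested B and plasma cell markers 0 were called higher and 2 lower, where 3.04% of all genes were called lower. Ms4a1, which encodes CD20, had 0.0783, 0.0535 and 0.160 CPM against 0.722, 0.416 and 1.04 CPM and fell, with a log2 fold change of -2.82 (SE 0.64, adjusted p = 0.0144). That call was lost without ligated replicate 1 or naive replicate 3 (adjusted p up to 0.0690), and the number called lower was 0 without ligated replicate 1 or naive replicate 3 and 1 without ligated replicate 3 or naive replicates 1 or 2. Among 7 mast cell markers 1 was called, where 13.0% of all genes were, namely Hdc, histidine decarboxylase, which neutrophils and basophils also express. Hdc had 20.2, 14.8 and 25.4 CPM against 3.64, 1.08 and 3.14 CPM (log2 fold change 2.94, SE 0.59, adjusted p = 0.00823), while the mast cell protease gene Mcpt4 had 3.79, 2.27 and 0.799 CPM against 2.74, 3.19 and 2.75 CPM.

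Interferon genes set ligated replicate 2 apart. Of 23 tested, edgeR called 0 and DESeq2 0, and 2 reached an unadjusted p under 0.05. In the ligated libraries 1, 2 and 3 the median was 0.11, 1.38 and 0.29. Cxcl9, a chemokine induced by interferon gamma, had 7.13, 74.6 and 15.9 CPM in ligated and 3.35, 5.38 and 4.24 CPM in naive libraries (log2 fold change 2.91, SE 1.34, adjusted p = 0.183), and Cxcl10 had 2.87, 15.1 and 5.34 CPM against 0.837, 2.69 and 1.28 CPM. In both genes ligated replicate 2 was the highest of the 6 CybbKO libraries, and the fold change of Cxcl9 rests largely on that library. Of 10 genes of MHC class II presentation 3 were called higher and 0 lower, where 9.95% of all genes were called higher. H2-Aa had 122, 167 and 123 CPM against 81.2, 68.7 and 104 CPM (log2 fold change 0.70, SE 0.17, adjusted p = 0.0206), a call lost without naive replicates 1 or 2 (adjusted p up to 0.0747), and the class II transactivator gene Ciita rose by 1.06 (SE 0.22, adjusted p = 0.00905). The count was 1 without naive replicates 1 or 2.

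**Figure D4:**
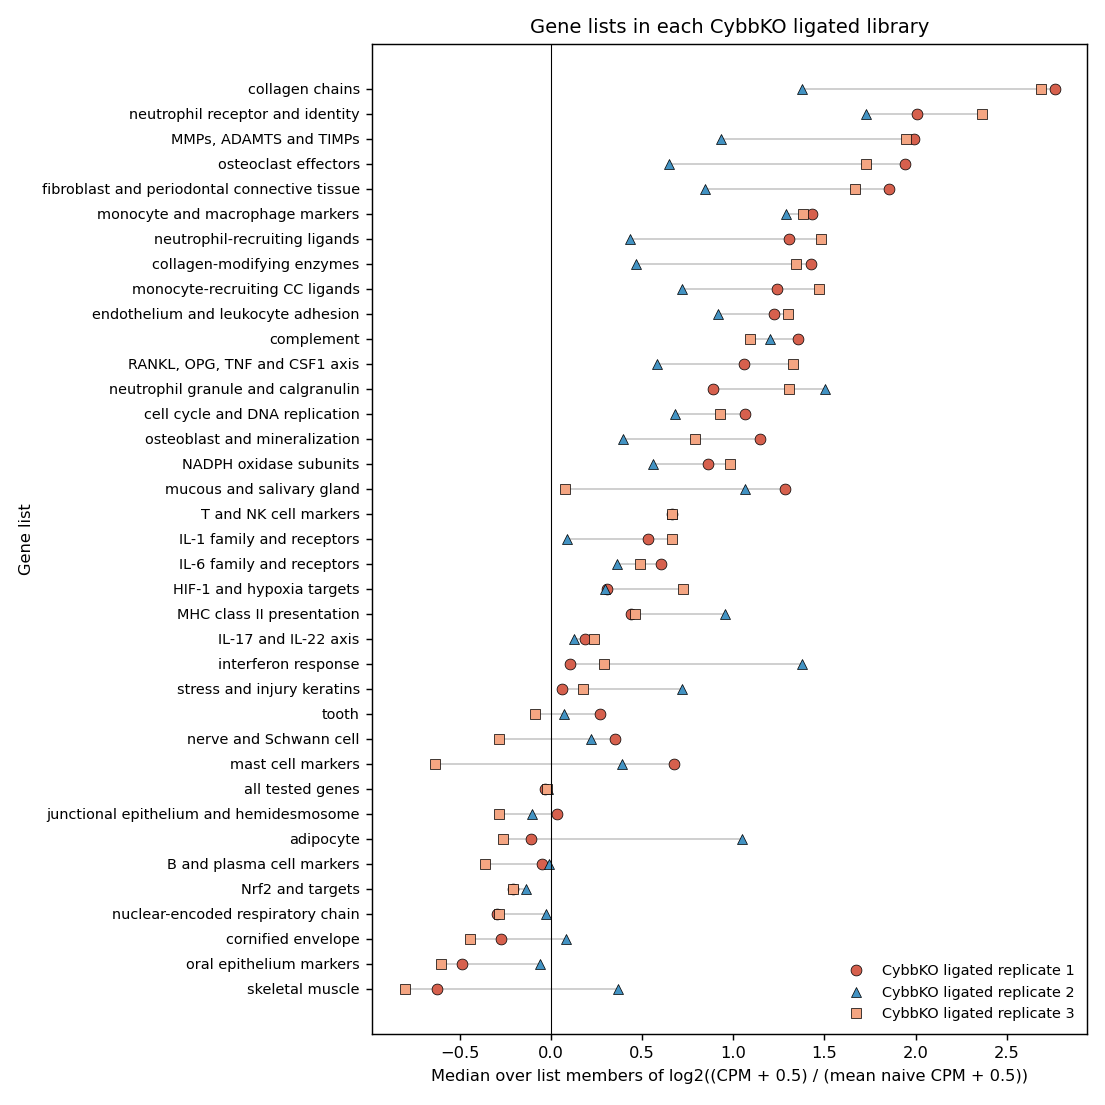
Each row is a gene list, and each symbol is 1 ligated CybbKO library at the median over list members of log2((CPM + 0.5) / (mean naive CPM + 0.5)). Replicate 2 (triangles) lies below replicates 1 and 3 for collagen chains (1.38 against 2.76 and 2.69) and osteoclast effectors, and above them for the interferon list (1.38 against 0.11 and 0.29), adipocyte and skeletal muscle genes.

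Cell cycle genes moved in both directions. Of 20, 10 were called higher and 4 lower, where 9.95% and 3.04% of all genes were. Those that rose are known mainly for driving entry into mitosis and its course. Ccnb2, a cyclin of mitotic entry, had 26.7, 24.3 and 23.1 CPM in ligated and 5.83, 5.38 and 9.88 CPM in naive libraries (log2 fold change 1.81, SE 0.23, adjusted p = 0.00189), and the proliferation marker Mki67 had 178, 121 and 185 CPM against 42.9, 56.8 and 85.7 CPM (log2 fold change 1.39, SE 0.24, adjusted p = 0.00437). Ligated libraries were above the naive ones in both genes. Those that fell, Mcm2, Mcm3, Mcm5 and Mcm6, encode subunits of the helicase that is loaded for DNA replication. Mcm2 had 14.8, 15.9 and 16.2 CPM in ligated and 38.6, 26.5 and 45.0 CPM in naive libraries, a log2 fold change of -1.23 (SE 0.24, adjusted p = 0.00732), and Mcm3, Mcm5 and Mcm6 had log2 fold changes of -1.17, -1.04 and -1.01. Leaving out a library ended the calls of Mcm3 without ligated replicates 1, 2 or 3 or naive replicates 1 or 3 (adjusted p up to 0.107), Mcm5 without ligated replicates 1 or 3 or naive replicates 1 or 3 (adjusted p up to 0.0785) and Mcm6 without ligated replicates 1, 2 or 3 or naive replicates 1 or 3 (adjusted p up to 0.101). The number called higher was 5 without naive replicates 1 or 2 and 6 without ligated replicates 1 or 3, and the number called lower was 1 without ligated replicates 1 or 3 or naive replicates 1 or 3 and 2 without ligated replicate 2.

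The antioxidant programme of Nrf2 had its calls on the lower side. Of 21 genes, 2 were called lower and 0 higher, with a median of -0.13, where 3.04% of all genes were called lower. DESeq2 called 3, 6 had an unadjusted p under 0.05, and 15 of the 21 were negative. Gstm1, a glutathione transferase, had 195, 261 and 162 CPM in ligated and 332, 361 and 469 CPM in naive libraries and fell, with -0.91 (SE 0.19, adjusted p = 0.00968). Gsta3 of the same enzyme class had a log2 fold change of -0.75 (SE 0.20, adjusted p = 0.0308), a call lost without ligated replicates 1 or 3 or naive replicates 2 or 3 (adjusted p up to 0.124). Nfe2l2, which encodes Nrf2, had 519, 534 and 531 CPM against 774, 739.8 and 704 CPM. Its ligated libraries were all below its naive ones, and the difference of -0.49 (SE 0.18, adjusted p = 0.102) did not pass the test. Nqo1 had 95.05, 116 and 94.2 CPM against 117, 131 and 140.5 CPM (adjusted p = 0.279), Gclc 179, 173 and 230.3 CPM against 202, 271 and 209 CPM (adjusted p = 0.468), and Hmox1 77.6, 106 and 86.6 CPM against 124, 61.5 and 78.5 CPM (adjusted p = 0.942). None of these 3 was called, and the groups of Gclc and Hmox1 overlapped. The number called lower was 1 without ligated replicates 1 or 3 or naive replicates 2 or 3, and 1 gene was called higher without ligated replicate 2.

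Of 16 genes of HIF-1 and its hypoxia targets 3 were called higher and 0 lower (median 0.50), where 9.95% of all genes were called higher. Hif1a had 794, 397 and 1144 CPM in ligated and 349, 322 and 312 CPM in naive libraries and rose by 1.25 (SE 0.31, adjusted p = 0.0212), with ligated replicate 2 lowest of its group. The glucose transporter gene Slc2a1 rose by 1.03 (SE 0.27, adjusted p = 0.0294) and the mitophagy gene Bnip3 by 1.18 (SE 0.25, adjusted p = 0.0119). The calls were lost for Hif1a with any single library but ligated replicate 2 left out (adjusted p up to 0.0930), Slc2a1 without ligated replicates 1 or 3 or naive replicates 2 or 3 (adjusted p up to 0.118) and Bnip3 without ligated replicate 3 (adjusted p = 0.0504), and the count was 0 without ligated replicate 3 and 1 without ligated replicate 1 or naive replicates 2 or 3. Ldha, a glycolytic target with the most reads of the list, had 852, 849 and 877 CPM against 834, 663 and 917 CPM and was not called. Of 24 nuclear-encoded subunits of the respiratory chain, edgeR called 0 and DESeq2 0, and 1 had an unadjusted p under 0.05. Their log2 fold changes spanned -0.48 to 0.04 with a median of -0.21, and 23 of the 24 were negative. Without ligated replicate 2, 1 was called lower.

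Tissue around the gingiva was present in these libraries in varying amounts. The summed CPM of 19 skeletal muscle genes was 1570.0 to 4625 in ligated and 1427 to 5271 in naive libraries, and ligated replicate 2 was the highest of its group. Of these genes 3 were called higher and 0 lower, where 9.95% of all genes were called higher, and the list median was -0.36, with 12 of 19 negative. The 3 kept their calls with each library left out. Myh8, a perinatal myosin of developing and regenerating fibres, had 16.9, 7.17 and 13.3 CPM against 1.01, 0.333 and 0.915 CPM (log2 fold change 4.05, SE 0.77, adjusted p = 0.00663). Tnnt1, the slow troponin T, had 11.8, 8.35 and 9.10 CPM against 1.47, 0.999 and 0.702 CPM (log2 fold change 3.20, SE 0.28, adjusted p = 0.000670), with tight groups far apart, and Myh2, the type IIa myosin of mature fibres, rose by 2.78 (SE 0.53, adjusted p = 0.00641), or by 3.43 without naive replicate 1. Myh3, the embryonic myosin, was not in the list and had 6.82, 0.562 and 6.30 CPM against 0.115, 0.0832 and 0 CPM (log2 fold change 6.01, SE 1.46, adjusted p = 0.0201), where the naive values stand for 0 to 4 reads, a call lost with any single library but ligated replicate 2 left out (adjusted p up to 0.0745), and without naive replicate 1 the log2 fold change was 6.61. Myh1, a fast myosin of mature fibres, had 337, 858 and 284 CPM against 232, 424 and 729.6 CPM and was not called (adjusted p = 0.940).

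Of 10 tested gland genes 1 was called higher and 0 lower, the share called higher being near the 9.95% of all genes. It was Lpo, lactoperoxidase of saliva and mucosa, with 5.77, 3.29 and 31.8 CPM in ligated and 0.664, 0.555 and 0.702 CPM in naive libraries (log2 fold change 4.41, SE 0.76, adjusted p = 0.00433), and without ligated replicate 3 the log2 fold change was 2.82. Muc5b, the main gland mucin, had 3810.1, 1825 and 3163 CPM against 1610.2, 2010.1 and 2477 CPM, and its groups overlapped. Without ligated replicate 2, 1 gland gene and 1 skeletal muscle gene were called lower. Of 8 tested adipocyte genes edgeR called 0 and DESeq2 0, and 1 had an unadjusted p under 0.05. Their summed CPM was 58.9 to 143 in ligated and 67.4 to 83.3 in naive libraries, with ligated replicate 2 at the top. Enamel and dentin genes were at or near 0. Amelx, Enam, Mmp20 and Dspp had 0 reads in all 6 libraries, and the 6 tooth genes together reached at most 1.28 CPM in a library. Of 10 nerve and Schwann cell genes 1 was called higher, again near the share of all genes, namely Ncam1 (log2 fold change 1.65, SE 0.30, adjusted p = 0.00545), which muscle also expresses. The part of muscle, fat and gland in the results above was not tested.

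The largest rise of all genes with a mean of at least 1 CPM was in Lipf (ENSMUSG00000024768, chr19:33961187-33976810, plus strand), gastric lipase. It had 99.1, 8.75 and 43.2 CPM in ligated and 0, 0.0277 and 0.122 CPM in naive libraries, where only 0, 1 and 4 reads were counted, and the log2 fold change of 9.92 (SE 1.84, adjusted p = 0.00592) rests on those few reads. It was 8.97 without ligated replicate 1 and 11.48 without naive replicate 3. A pair of proteoglycan genes of dense connective tissue was also among the 12 largest rises. Keratocan, Kera, had 9.40, 1.74 and 7.58 CPM against 0.115, 0.0277 and 0.0915 CPM (log2 fold change 6.27, SE 0.76, adjusted p = 0.00185), and aggrecan, Acan, had 6.11, 6.02 and 3.33 CPM against 0.289, 0.111 and 0.0915 CPM (log2 fold change 4.94, SE 0.65, adjusted p = 0.00207), or 5.62 without naive replicate 1. Il24, a cytokine of the IL-10 family that acts on epithelium, rose by 4.64 (SE 0.93, adjusted p = 0.00841), from 0.260, 0.194 and 0.336 to 9.43, 2.54 and 7.85 CPM. Cxcl17, a mucosal chemokine-like protein, was highest in ligated replicate 2, with 2.43, 7.94 and 1.67 CPM against 0.202, 0.0832 and 0.122 CPM (log2 fold change 4.85, SE 1.41, adjusted p = 0.0423), and its call was lost with any single library left out (adjusted p up to 0.129). Its log2 fold change was 3.88 without ligated replicate 2.

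Among the 12 largest falls of called genes with at least 1 CPM on average and no overlap were 2 genes of the circadian clock. Per2, a repressor in the clock's feedback loop, had 5.30, 13.4 and 4.61 CPM in ligated and 72.0, 96.4 and 81.0 CPM in naive libraries. Every ligated library was several times lower than every naive one, and the log2 fold change was -3.42 (SE 0.49, adjusted p = 0.00238), and -4.07 without ligated replicate 2. Ciart (ENSMUSG00000038550, chr3:95878503-95882251, minus strand), another clock repressor, had 1.80, 9.76 and 2.05 CPM against 36.3, 23.999 and 16.8 CPM, a log2 fold change of -2.51 (SE 0.60, adjusted p = 0.0191), and its call was lost without ligated replicates 1 or 3 or naive replicate 1 (adjusted p up to 0.0753). For Ciart the log2 fold change was -3.74 without ligated replicate 2. The hour at which tissue was taken is not given in the sources used here. The promoter of Ciart is shown because clock activators bind the E-box CACGTG. The 250 bases before its RefSeq start (GRCm38.p6, printed 5′ to 3′ on the minus strand, E-box matches in capitals) held 3 matches, which began 116, 58 and 44 bases before the start. The same 6 letters, which read alike on both strands, were found in 6.02% of all promoter windows. Here too a match of letters is not a measured binding site, and its part in the fall of Ciart was not tested.
Ciart chr3:95882229-95882478: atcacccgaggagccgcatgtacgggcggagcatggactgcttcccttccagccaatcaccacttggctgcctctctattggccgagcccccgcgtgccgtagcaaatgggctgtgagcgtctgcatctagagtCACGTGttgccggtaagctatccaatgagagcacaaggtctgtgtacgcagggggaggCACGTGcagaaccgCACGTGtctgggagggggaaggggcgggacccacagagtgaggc
The largest fall among called genes with a mean of at least 1 CPM and groups that did not overlap was in Plk5, a polo-like kinase relative, with 0.104, 0.267 and 0.160 CPM against 2.45, 1.41 and 4.15 CPM (log2 fold change -3.89, SE 0.56, adjusted p = 0.00234). Fam81a, of unsettled function, had the smallest p of the falls, with 2.17, 2.51 and 1.89 CPM against 11.9, 8.57 and 10.4 CPM (log2 fold change -2.23, SE 0.22, adjusted p = 0.000951). Cntfr, the receptor gene for ciliary neurotrophic factor, fell with -2.61 (SE 0.51, adjusted p = 0.00775), or -3.34 without ligated replicate 2 and -1.99 without naive replicate 1. Ces1d, a carboxylesterase, had 23.6, 39.0 and 14.9 CPM against 73.5, 158 and 142 CPM (log2 fold change -2.27, SE 0.50, adjusted p = 0.0129), a call lost without ligated replicates 1 or 3 (adjusted p up to 0.0603). Serpina11, a serpin, fell with -2.50 (SE 0.37, adjusted p = 0.00245). The remaining falls of this set, Krtap13, 2310034C09Rik, Gngt1, H2-M5 and Gapdhs, had log2 fold changes between -2.75 and -2.10, and Krtap13 had -1.93 without naive replicate 1. Cd207, the Langerhans cell lectin langerin, was chosen after its values were seen and had 2.40, 1.93 and 1.67 CPM against 6.61, 9.96 and 7.60 CPM (log2 fold change -2.01, SE 0.39, adjusted p = 0.00742).

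The same comparison in WT mice, with its own 3 ligated and 3 naive libraries, called 481 of the 15046 genes (3.20%), 348 higher (2.31%) and 133 lower (0.884%). In all, 410 genes were called in both genotypes in the same direction, 85.2% of the WT calls and 20.98% of the CybbKO calls, and 0 in opposite directions. Of the 1954 CybbKO calls, 1931 had the same sign in WT. The difference between the responses, tested as an interaction, was called for 0 genes (0% of 15046) by edgeR and for 0 by DESeq2. An unadjusted p under 0.05 was reached by 342 genes in edgeR and 447 in DESeq2. List medians in CybbKO and WT were 2.51 and 1.63 for collagen chains. They were 2.57 and 1.76 for neutrophil receptors, 2.13 and 0.93 for MMPs, and 0.99 and 1.16 for the cell cycle. These medians are values side by side, and their differences were not tested. The WT count was 247, 110 and 120 without WT ligated replicates 1, 2 and 3, and 113, 27 and 737 without WT naive replicates 1, 2 and 3. Without WT naive replicate 2 the difference was called for 1 gene, Gm5678, a predicted gene named here after its values were seen. It had 0, 0.0267 and 0.0228 CPM in ligated and 1.27, 1.30 and 1.31 CPM in naive CybbKO libraries (log2 fold change -6.01, SE 1.38, adjusted p = 0.0159), and 0.672, 0.628 and 0.259 CPM and 0, 1.20 and 0.0365 CPM in WT. The CybbKO call of Gm5678 was lost without ligated replicates 1 or 3 (adjusted p up to 0.0726).

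**Figure D5:**
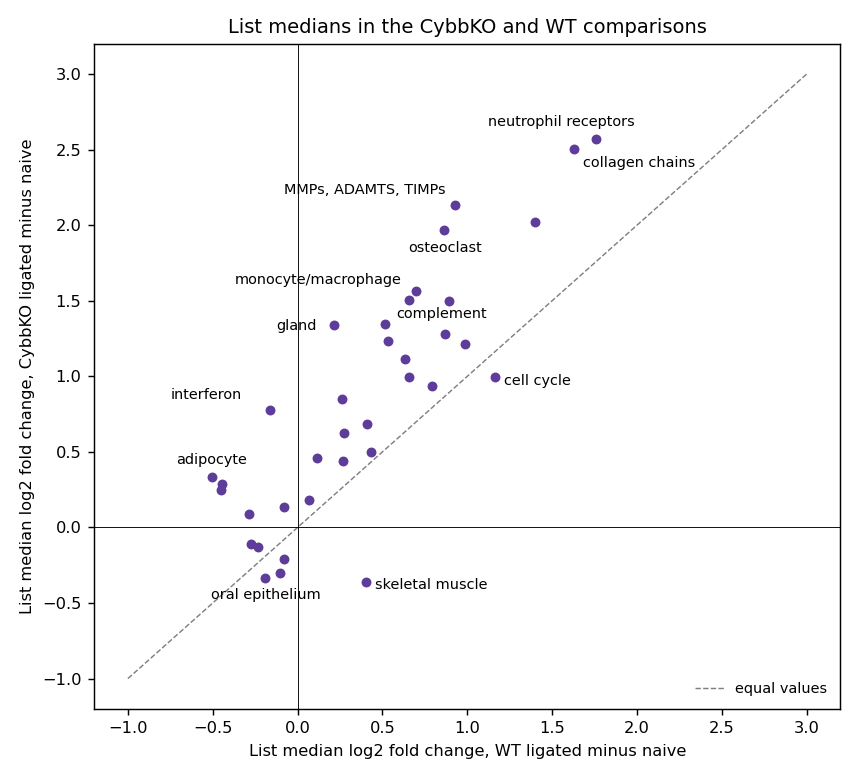
Each point is 1 of the 36 gene lists, with its median log2 fold change, ligated minus naive, in WT on the x axis and in CybbKO on the y axis and a dashed line at equal values. Collagen chains lie at 2.51 in CybbKO and 1.63 in WT and the cell cycle list at 0.99 and 1.16, and no gene passed the test of the difference.

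The 5 genes with the smallest p for that difference were Unc80, Serpina3n, Ccdc183, Ism1 and Acan. Unc80, a subunit of the sodium leak channel complex, had 0.0783, 0.0802 and 0.114 CPM in ligated and 0.952, 1.22 and 1.01 CPM in naive CybbKO libraries (log2 fold change -3.48, SE 0.54, adjusted p = 0.00285). In WT it had 0.373, 0.680 and 0.415 CPM in ligated and 0.548, 0.727 and 0.146 CPM in naive libraries, a log2 fold change of 0.03, and the difference was -3.51 (SE 0.72, unadjusted p = 0.000381, adjusted p = 1.00). Serpina3n, an inhibitor of neutrophil serine proteases, had 47.1, 47.1 and 39.7 CPM against 10.1, 5.72 and 7.66 CPM in CybbKO (log2 fold change 2.51, SE 0.35, adjusted p = 0.00227). In WT it had 5.43, 17.4 and 10.4 CPM against 7.07, 8.19 and 9.91 CPM (log2 fold change 0.40, SE 0.34, adjusted p = 0.554), and the difference was 2.11 (SE 0.48, unadjusted p = 0.000971, adjusted p = 1.00). For Acan the WT log2 fold change was 1.56 (SE 0.53, adjusted p = 0.129) and the difference 3.38 (SE 0.82, unadjusted p = 0.00151, adjusted p = 1.00). In Ccdc183 and Ism1 neither genotype's own response was called, and the differences were 2.85 (SE 0.66, unadjusted p = 0.000998, adjusted p = 1.00) and 1.08 (SE 0.26, unadjusted p = 0.00150, adjusted p = 1.00).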

How the data were processed

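Gingival RNA of 12 libraries (4 groups of 3) was sequenced from stranded poly(A) libraries. The authors deposited read counts per gene, not normalized. The methods name STAR on GRCm38 with reverse-stranded featureCounts, while the submitters' processing notes list HTSeq 0.10.0, FastQC 0.10.1 and mm10, so the counting tool is not settled. The table held 21965 genes, of which 21939 were matched to the annotation.

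Counts of all 12 libraries (27958819 to 42613423 reads each) were fitted together with edgeR 4.0.16 in R 4.3.3, with TMM scaling, edgeR's filter on low counts (15046 genes kept), quasi-likelihood tests and Benjamini-Hochberg adjustment over all genes kept. Intervals of spread are standard errors of the fit, and CPM values are TMM-scaled. The biological coefficient of variation was 0.240. Scripts were tested on simulated counts. No pair of replicates agreed within sampling noise (chi-square per degree of freedom at least 36.0). The labels do not say how RNA of single mice was handled, so p-values measure the spread between these samples.

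Members and gene lists were chosen with earlier results of these data known. Of 553 list entries, 549 had a row in the table. Genes were named by rule: Cybb, the 12 largest rises and falls among called genes with at least 1 CPM on average and no overlap between groups, per list the gene with the most CPM and the 4 with the smallest p, 15 genes the study names, and the 5 with the smallest p for the difference between genotypes. The others, chosen after their values were seen, were Mmp3, Mmp10, Timp1, Col1a1, Col1a2, Col4a1, Plod2, Pdgfra, Pdgfrb, Clec4e, Clec4d, Ly6g, Adgre1, C5ar1, C3, Cyba, Nox4, Il1f10, Mcm3, Mcm5, Mcm6, Cd207, Gm5678 and the clock genes of the closing observations. Alternatives were DESeq2 1.42.0, its size factors in edgeR, library size scaling alone, other filters on low counts, a robust fit, the 6 libraries of a contrast alone, a replicate block and each library left out. Because of this choice, groups that do not overlap in a named gene describe its values and add no support. Some genes of the lists are counted but not reported by name here.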

Additional observations from a re-analysis of the deposited data

How the results depend on the processing

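The CybbKO count of 1954 called genes (76.6% higher) became 2805 with DESeq2 (1943 shared with the 1954), 1954 with DESeq2 size factors, 1931 with library size alone (86.3% higher), 1808 with no filter on low counts, 1723 with at least 10 counts in every library, 1950 with the robust fit and 1519 from the 6 libraries alone. With one library left out it ran from 837 to 2949. The 457 lower calls became 918 with DESeq2, 265 with library size alone, 251 from the 6 libraries alone and 300 with the replicate block, and ran from 115 to 974 with one library left out. The WT count of 481 became 1374 with DESeq2 and ran from 27 to 737 with one library left out. The difference between genotypes was not fitted from 6 libraries alone and was called for 0 genes under each of the other settings except for 1 gene without WT naive replicate 2, so with one library left out it ran from 0 to 1. The replicate numbers did not pair the libraries, since correlations of same-numbered deviations were -0.306 to 0.00282 in CybbKO and -0.222 to -0.174 in WT. With the replicate block 1573 genes were called in CybbKO and 271 in WT. For the causes of these changes, fewer libraries in the fit or fewer genes tested is part of the construction, and otherwise the cause was not tested.

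Of 129 called genes named in the text, 0 lost their call with DESeq2, 1 with library size alone, 8 with the 6 libraries alone and 8 with the replicate block, while 33 lost it without ligated replicate 1, 33 without ligated replicate 3, 4 without ligated replicate 2, and 25, 25 and 26 without naive replicates 1, 2 and 3. Among the genes named in the text, signs changed under these settings only in genes that were not called. P4hb was at 0.034 with library size alone and ran from -0.11 to 0.016 with one library left out, Mcpt4 from -0.92 to 0.066, Hmox1 from -0.17 to 0.36, Ldha from -0.027 to 0.20 and Myh1 from -0.57 to 0.59 (log2 fold change). Low counts limit folds of genes whose lower group held few reads per library, such as Ly6g, Il6, Il17a, Myh3, Lipf, Ccl3, Kera, Ocstamp, Ms4a1, Acan, Saa1, Plk5, Unc80 and Gm5678.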

Other observations

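Per2 and Ciart were not the only clock genes with lower values in ligated CybbKO gingiva. A set of 19 core clock genes and clock output factors was chosen after their values were seen, so its counts describe these libraries only. In ligated CybbKO tissue 9 were called lower and 3 higher, where 3.04% and 9.95% of all genes were. The repressor genes Per3, Cry2 and Nr1d2 had log2 fold changes of -2.10 (SE 0.40, adjusted p = 0.00663), -1.35 (SE 0.28, adjusted p = 0.00936) and -1.35 (SE 0.26, adjusted p = 0.00698). Per3 had 16.5, 49.2 and 17.4 CPM in ligated and 116, 135 and 105 CPM in naive libraries, and ligated replicate 2 was the closest to the naive values. The output factors Tef and Hlf fell, with -1.87 (SE 0.43, adjusted p = 0.0166) and -1.80 (SE 0.32, adjusted p = 0.00486), and Bhlhe41, a repressor, with -1.87 (SE 0.28, adjusted p = 0.00276). Dbp had 4.13, 47.3 and 5.27 CPM against 135, 97.7 and 85.2 CPM and was not called (log2 fold change -2.49, SE 0.78, adjusted p = 0.0560), although without ligated replicate 2 it was (adjusted p = 0.000231). For Dbp that library lay far above the other ligated ones, and the fall was larger without it. The activator genes Arntl, with 61.4, 27.1 and 51.6 CPM against 14.5, 13.1 and 14.6 CPM, and Npas2, with 19.9, 9.34 and 17.4 CPM against 2.68, 3.33 and 3.26 CPM, rose by 1.73 (SE 0.27, adjusted p = 0.00298) and 2.33 (SE 0.32, adjusted p = 0.00207), and Nfil3, which opposes the Dbp family, by 1.24 (SE 0.28, adjusted p = 0.0146). Calls were lost for Tef without ligated replicates 1 or 3 (adjusted p up to 0.0679) and Nfil3 without ligated replicates 1 or 3 or naive replicate 1 (adjusted p up to 0.0681). Without ligated replicate 2 the log2 fold changes were -2.81 for Per3 and -2.76 for Tef.

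All 19 genes had the same sign of change in WT mice, as had 1931 of the 1954 genes called in CybbKO. There 7 of the 19 were called lower and 2 higher, where 0.884% and 2.31% of all genes were. For the difference between genotypes 0 of the 19 had an unadjusted p under 0.05. As only 342 of the 15046 genes tested had one, that 0 is not a result about the clock. In WT the log2 fold changes were -3.58 (SE 0.50, adjusted p = 0.00729) for Per2, 2.50 (SE 0.32, adjusted p = 0.00502) for Npas2 and 1.54 (SE 0.27, adjusted p = 0.0165) for Arntl. Whether ligated and naive mice were sampled at the same hour is not given in the sources used here, and the part of sampling time was not tested.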
